A study of Mus musculus with 6 samples.

Results

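The 9 genes described here, Phlda1, Ier2, Ier3, Myc, Maff, Emp1, Cd44, Hmga1 and Hmga2, were listed by name as late and delayed output genes of ERK signalling. They are 9 of the 54532 genes in the expression table, and the rule that lists them uses no measured value, although it was written with earlier results of these data known. RNA was sequenced from primary cardiomyocytes of newborn mouse hearts whose Rit1 locus had been engineered so that Cre recombinase switches on the variant M90I of the RAS-related GTPase RIT1. On day 3 after isolation the cells received adenovirus encoding GFP alone (AdGFP, genotype labelled Rit1 +/+) or GFP with Cre (AdCre, genotype labelled Rit1 M90I/+), with 3 samples labelled as biological replicates in each group. The cells of both groups carried the engineered locus and were infected with virus. Per the study, RNA was taken at a single time, several days after the virus was given, so early and late responses were not followed over time. Per the study's methods, the cells of about a single heart were seeded in each well. Whether a sample holds the cells of a single animal is not stated. Cells without that locus that were given Cre are not among the samples, so the effect of Cre and that of the variant cannot be told apart. The comparison asks how expression of the variant changes the transcripts of heart cells. The deposited values are FPKM, in which fragment counts are divided by exon length and sequencing depth, and the reads recovered from them ranged from 25.28 to 32.43 M (megareads) per sample.

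ERK is the last kinase of the RAS, RAF and MEK cascade. Once active, it first switches on immediate-early genes, many of which encode transcription factors, and genes of a later wave follow when signalling lasts. RIT1 is a relative of RAS, and variants that raise its abundance or activity cause Noonan syndrome, in which the heart muscle is often thickened. Of the 9 genes, Ier2, Ier3 and Myc are early responders, Maff encodes a small MAF transcription factor, Phlda1 a pleckstrin-homology-like protein, Emp1 a membrane protein of the PMP22 family, Cd44 the receptor for hyaluronan, and Hmga1 and Hmga2 chromatin proteins that bind AT-rich DNA and are abundant in embryonic and growing cells.

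Promoter windows were read for the genes whose levels are discussed most, since ERK output passes through DNA-binding factors. RefSeq windows (GRCm38.p6, 250 bases before to 50 after a start site) were found for 6 of the 9 genes and gave 10 windows. Phlda1, Ier2 and Myc had none in the table. The windows were searched on both strands for the AP-1 motif TGANTCA, the CRE motif TGACGTCA, the E-box CACGTG, the ETS motif CCGGAAG and the CArG box. Matches were present only in the first Emp1 window and the second of 3 Maff windows, which are shown here for that reason, with the matches in capitals.
Emp1, chr6:135362681-135362980, plus strand: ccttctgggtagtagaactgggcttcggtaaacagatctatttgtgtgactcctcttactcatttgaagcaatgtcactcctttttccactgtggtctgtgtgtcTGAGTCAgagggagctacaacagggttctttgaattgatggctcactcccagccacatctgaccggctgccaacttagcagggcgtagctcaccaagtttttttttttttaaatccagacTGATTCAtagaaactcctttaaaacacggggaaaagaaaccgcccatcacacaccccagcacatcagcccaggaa
Maff, chr15:79347270-79347569, plus strand: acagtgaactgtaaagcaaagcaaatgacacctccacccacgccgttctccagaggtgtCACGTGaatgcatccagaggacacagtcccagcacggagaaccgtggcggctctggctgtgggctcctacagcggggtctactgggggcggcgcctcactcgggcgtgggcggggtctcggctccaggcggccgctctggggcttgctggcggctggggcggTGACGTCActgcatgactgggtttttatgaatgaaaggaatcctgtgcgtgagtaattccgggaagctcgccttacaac
The Emp1 window held AP-1 matches 145 and 25 bases before the start, and 7.81% of all 32851 windows held one. The Maff window held a CRE match 29 bases and an E-box 191 bases before the start, against 1.79% and 7.15% of all windows. The ETS motif and the CArG box, present in 8.86% and 1.63% of windows, had no match in any of the 10. A match is a stretch of letters and not a measured binding site, and its absence describes these 300 bases alone.

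All 9 genes were expressed in both groups. In AdGFP, Ier3 had the highest mean level at 72.9 ± 8.72 FPKM (SD, n = 3) and Maff the lowest at 8.78 ± 1.37 FPKM (SD, n = 3). From the top the AdGFP order was Ier3, Emp1, Hmga1, Phlda1, Ier2, Cd44, Myc, Hmga2 and Maff, and the only neighbours whose 3 samples did not overlap were Phlda1 with Ier2 and Cd44 with Myc. In AdCre the order was Emp1, Hmga1, Ier3, Cd44, Phlda1, Ier2, Hmga2, Maff and Myc, and the neighbours without overlap were Ier3 with Cd44, Phlda1 with Ier2 and Hmga2 with Maff. These levels are per base of all annotated exons of a gene, whether used in these cells or not, so the order between genes is approximate. The places of Hmga1 and Phlda1 are further uncertain because their exons share sequence with, or lie opposite, other genes. Between 476 and 16714 reads stood behind each value, so counting error was at most 4.58% of a value, reached for Maff, and this covers counting alone.

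**Figure D1:**
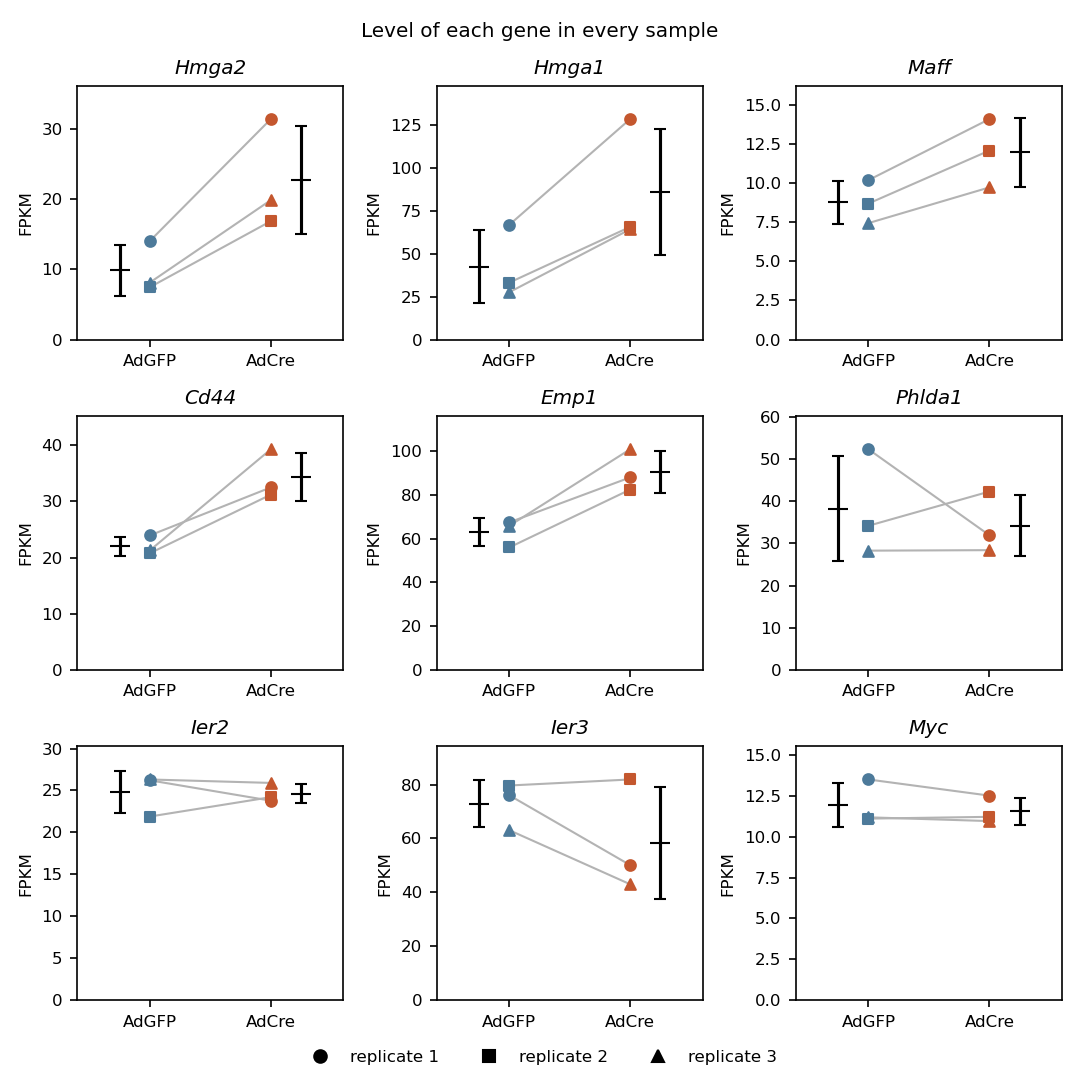
FPKM of each of the 9 genes in the 3 AdGFP and 3 AdCre samples, with one symbol per replicate, grey lines joining samples of the same number and bars for the mean ± SD. The AdCre points of Emp1, Cd44 and Hmga2 all lie above the AdGFP points, and those of Ier2 and Myc overlap theirs.

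The main limma fit, which compares the groups without pairing samples, called 0 of the 9 genes. With samples of the same replicate number compared as pairs, 5 of the 9, Hmga2, Hmga1, Cd44, Emp1 and Maff, were called higher in AdCre. None of the 9 was called lower in either fit. The mean AdCre level of these genes was 2.30 times the mean AdGFP level for Hmga2, 2.03 for Hmga1, 1.56 for Cd44, 1.43 for Emp1 and 1.36 for Maff. Myc, Ier2, Ier3 and Phlda1 did not pass the test in either direction. These calls come from a limma fit over 13788 genes with the replicate number as a block, at an adjusted p under 0.05, in which 2.64% of all genes were called higher and 3.51% lower. Without the block, limma called 0 of the 9 genes and 0.00725% of all genes, which is 1 gene, although 5 of the 9 had an unadjusted p under 0.05. Of all genes, 10.2% had an unadjusted p under 0.05 in that fit and 24.8% in the blocked one. Unblocked voom on the recovered reads gave the same counts for the 9, with 0 called and 5 at an unadjusted p under 0.05. The blocked calls rest on a spread estimated with few degrees of freedom. They numbered 4 without pair 1, 2 without pair 2, 0 without pair 3, 1 when no filter was set on low values and 0 when limma's trend of variance with level was left out.

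Of the 9 genes, 5 were higher in AdCre in each of the 3 pairs, against 23.9% of all genes. They are the 5 that rose in the blocked fit, which uses the same pairs, so this is not separate support for those calls. No gene of the 9 was lower in all 3 pairs, where 24.5% of all genes were. For 3 of the 9, Emp1, Cd44 and Hmga2, the lowest AdCre sample exceeded the highest AdGFP sample, against 7.35% of all genes. The opposite separation was found for 0 of the 9 and 8.02% of all genes. The exact permutation test of 3 samples against 3 cannot give a two-sided p under 0.1, and Emp1, Cd44 and Hmga2 reached that value. The median log2 difference over the 9 genes was 0.44, and over all genes tested it was -0.0023.

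Hmga2, an architectural chromatin protein of proliferating fetal tissue (chr10:120361275-120476469, GRCm38), had the largest difference of the 9. Its levels were 14.1, 7.48 and 8.14 FPKM in AdGFP 1 to 3 and 31.4, 16.9 and 19.9 FPKM in AdCre 1 to 3. No AdGFP sample reached the AdCre range, and replicate 1 was the highest of its group in both. The log2 difference was 1.20 (SE 0.31, 95% CI 0.47 to 1.93) with an adjusted p of 0.30 without the block, and with it the SE was 0.077 and the adjusted p 0.0074. The differences within pairs were 1.16, 1.17 and 1.28, so they varied far less than the levels did. Hmga2 stood 11th of the 13788 genes by p in the blocked fit.

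Hmga1, the other AT-hook chromatin protein (chr17:27556497-27563674), was likewise highest in replicate 1 of both groups. Its levels were 66.8, 33.2 and 27.6 FPKM in AdGFP and 128.5, 65.7 and 64.3 FPKM in AdCre. The groups overlapped, because AdGFP 1 exceeded AdCre 2 and AdCre 3, but each AdCre sample was above the AdGFP sample of its own number. AdCre minus AdGFP was 1.05 on the log2 scale (SE 0.40, 95% CI 0.11 to 1.99, adjusted p 0.45) without the block, and with it the SE was 0.084 and the adjusted p 0.0099. Pair differences were 0.94, 0.98 and 1.22. The exact two-sided permutation p, which ignores pairs, was 0.3. Hmga1 values are uncertain, since 55% of the 50-base words in its exons also occur in other genes, mostly Hmga1b, which was listed at 0.17 to 0.94 FPKM. The ratio of Hmga1 to Hmga2 FPKM was 4.75, 4.44 and 3.39 in the AdGFP samples and 4.09, 3.89 and 3.23 in the AdCre samples. The ranges overlapped, and within each of the 3 pairs the ratio was lower in AdCre, a difference that was not tested.

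Cd44, which binds hyaluronan at the cell surface (chr2:102811141-102901665), measured 23.9, 20.8 and 21.3 FPKM in AdGFP and 32.5, 31.2 and 39.3 FPKM in AdCre. The AdGFP samples were close together, and all 3 AdCre samples were above them. On the log2 scale the difference was 0.64 (SE 0.13, 95% CI 0.32 to 0.95), with an adjusted p of 0.23 without the block and 0.031 with it. Emp1, at chr6:135362545-135383173 (GRCm38), measured 67.4, 55.9 and 65.8 FPKM in AdGFP and 87.9, 82.4 and 100.8 FPKM in AdCre. Here too the groups were separate. The log2 difference was 0.52 (SE 0.14, 95% CI 0.20 to 0.84), with an adjusted p of 0.31 without the block and 0.029 with it.

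Maff, which pairs with other basic leucine zipper factors and lacks a transactivation domain of its own (chr15:79346621-79359076), was the lowest of the 5 in level. It measured 10.2, 8.70 and 7.44 FPKM in AdGFP and 14.1, 12.1 and 9.73 FPKM in AdCre. The lowest AdCre sample was below the highest AdGFP sample, so the groups overlapped. The pair differences were nearly equal at 0.46, 0.47 and 0.38. Maff differed by 0.44 on the log2 scale (SE 0.18, 95% CI 0.0096 to 0.87), with an adjusted p of 0.49 without the block and 0.039 with it, where the SE was 0.079.

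**Figure D2:**
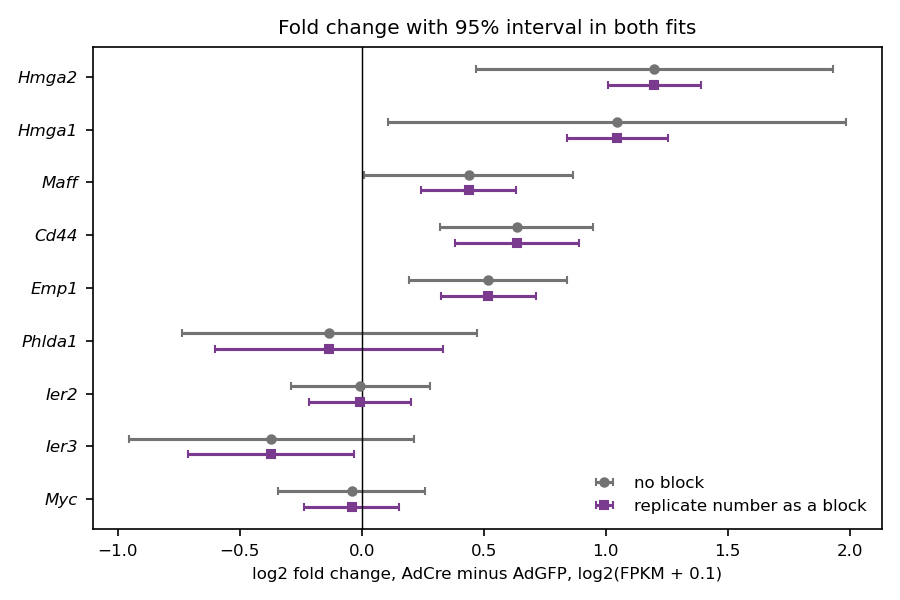
Log2 difference, AdCre minus AdGFP, on the log2(FPKM + 0.1) scale for each of the 9 genes, with 95% confidence intervals from limma with and without the replicate number as a block. The intervals of Hmga2, Hmga1, Cd44, Emp1 and Maff lie above 0 in both fits, and those with the block are narrower.

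Myc, Ier2, Ier3 and Phlda1 were not called in either fit. Myc, the growth-promoting transcription factor (chr15:61985391-61990374), measured 13.5, 11.1 and 11.2 FPKM in AdGFP and 12.5, 11.2 and 11.0 FPKM in AdCre, and the groups overlapped. Its log2 difference was -0.041 with a 95% CI of -0.34 to 0.26, or -0.24 to 0.15 with the block. Ier2, a nuclear protein of the immediate-early wave (chr8:84661331-84662852), measured 26.2, 21.9 and 26.3 FPKM in AdGFP and 23.8, 24.2 and 25.9 FPKM in AdCre. The AdCre samples lay inside the AdGFP range. Its log2 difference was -0.0064, with a 95% CI of -0.29 to 0.28 and an adjusted p of 1.00, or -0.22 to 0.20 with the block. The sign for Ier2 and Myc turned under other scalings, so no direction is given for either.

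Ier3, an early-response protein that modulates ERK signalling and cell survival (chr17:35821684-35822923), measured 76.1, 79.7 and 63.1 FPKM in AdGFP and 50.1, 81.9 and 43.0 FPKM in AdCre, with replicates 1 and 3 below every AdGFP sample and replicate 2 above them. The log2 difference was -0.37 (SE 0.25, 95% CI -0.96 to 0.21), with an adjusted p of 0.69. With the block its interval was -0.71 to -0.030, and the adjusted p was 0.17. Phlda1, at chr10:111506286-111508645, measured 52.3, 34.2 and 28.3 FPKM in AdGFP and 31.9, 42.3 and 28.4 FPKM in AdCre. Its pairs went in different directions, at -0.71, 0.31 and 0.0062. The log2 difference was -0.13 (SE 0.26, 95% CI -0.74 to 0.47), with an adjusted p of 0.93, or 0.71 with the block, and it was 0.12 without AdGFP 1. Exons of an antisense gene, Gm28592, cover 33% of Phlda1 exon bases, and whether counting used strand is not given in the sources used here.

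The genes around these 9 were counted in 9 lists, written with earlier results of these data known. Other ERK output, which spans feedback phosphatases, ETS, AP-1 and EGR factors and EGF-family ligands, had 33 of 34 genes tested, of which 28 had a positive difference and 5 a negative one. Of the 33, 11 were called higher with the block (33.3%, against 2.64% of all genes) and 0 lower (3.51% of all genes). None was called without the block, where 15 had an unadjusted p under 0.05 (10.2% of all genes). The study named some of the 33 from these samples, so the count of 11 is not independent evidence of direction. The 4 with the smallest p were Ccnd1, Errfi1, Lif and Etv4. Lif, an IL-6 family cytokine, measured 8.77, 3.76 and 3.58 FPKM in AdGFP and 15.1, 8.00 and 7.58 FPKM in AdCre, with a log2 difference of 0.97 and an adjusted p of 0.014 with the block. Like Hmga1, it was highest in replicate 1 of both groups.

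The 8 other lists held 89 tested genes, of which 5 were called with the block. That is 5.62%, near the 6.15% of all genes called in that fit in either direction. Among MYC and MAX network partners 0 of 12 were called in either fit, with 5 positive and 7 negative differences and 1 at an unadjusted p under 0.05 in each. The smallest p values there were those of Mxd1 and Mxi1, MAX-binding repressors, with log2 differences of 0.43 and -0.37 and adjusted p of 0.13 and 0.20 with the block. Of 20 MYC-induced genes, 16 had a positive difference and 1 was called with the block, Cad, an enzyme of pyrimidine synthesis, at a log2 difference of 0.60. Small MAF partners and family had 0 of 10 called, with 1 and 6 at an unadjusted p under 0.05 without and with the block, led by Nfe2l3 at -0.85 and Maf at -0.78, with adjusted p of 0.052 and 0.14 with the block. Of 15 CD44 ligands and partners, 12 had a positive difference, Has2, a hyaluronan synthase, rose by 0.62 and Cemip, which takes part in hyaluronan breakdown, fell by 1.24 on the log2 scale, both with the block. Of 8 HMGA-linked growth genes Ccnd2, a D-type cyclin, rose by 0.45, with the block. The high mobility group family had 0 of 7 called and 0 at an unadjusted p under 0.05 in either fit, and its smallest p values belonged to Hmgn3 (-0.12) and Hmgn1 (0.089). The IER, PHLDA and EMP relatives had 0 of 6 called, with 1 and 3 at an unadjusted p under 0.05, led by Ier5l (0.57) and Emp3 (0.31). Of 11 serum response factor and actin-linked genes 1 was called with the block, Elk3, an ETS factor, at 0.46. No list had a gene called without the block.

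**Figure D3:**
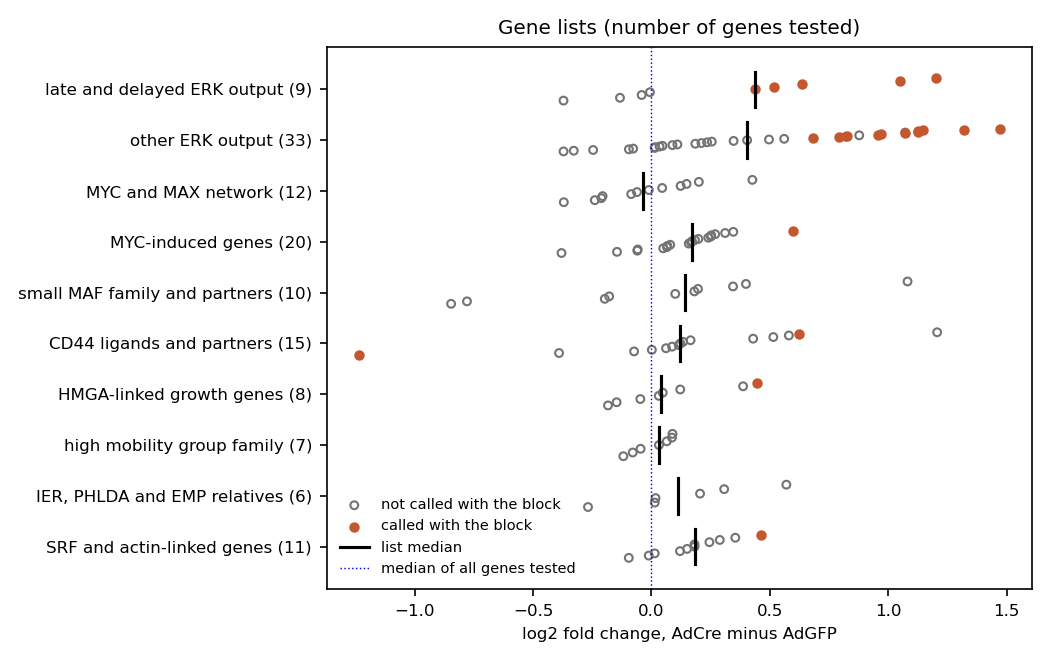
Log2 difference, AdCre minus AdGFP, of each tested gene in the 9 gene lists and of the 9 genes described here, with one point per gene, filled where called with the block, and a bar for each median. The median is 0.44 for the 9 genes and 0.40 for other ERK output.

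Markers of some of the cell types that such cultures can hold moved with the groups in the blocked fit, and no marker of any class was called without the block. All 8 cardiomyocyte markers had negative differences, 5 of them called with the block, and their summed level was 1496 to 2014 FPKM in AdGFP and 856 to 1484 FPKM in AdCre. The labelled cell type was present, with Tnnt2, cardiac troponin T, at 210 to 537 FPKM, but so was Col1a1, a fibroblast collagen, at 1389 to 2450 FPKM. Fibroblast markers summed to 2589 to 4644 FPKM in AdGFP and 2272 to 3324 FPKM in AdCre, with 7 of 8 negative and 3 called with the block. All 8 endothelial markers had positive differences, 4 called with the block, and summed to 90.7 to 139 and 134 to 197 FPKM. Macrophage markers, 7 tested of 8, all had positive differences, 1 called with the block, with sums of 41.9 to 228 and 75.4 to 282 FPKM. Smooth muscle markers had 0 of 7 called, with 0 and 1 at an unadjusted p under 0.05 without and with the block, and their sums overlapped between groups. Of 7 mesothelial markers, 2 had positive and 5 negative differences, and 1 was called in each direction with the block. All 8 proliferation markers had positive differences, 1 called with the block, with sums of 113 to 117 and 128 to 155 FPKM. None of 5 red cell markers passed the filter, and Hbb-bt and Hba-a2 were at 0 in every sample. In bulk RNA, fewer cells of a type and less RNA per cell cannot be told apart, and the part of cell composition in the values of the 9 genes was not tested. Rit1 itself, whose transcript level does not check the variant, measured 7.66 to 9.01 FPKM in AdGFP and 8.90 to 9.58 FPKM in AdCre and was not called.

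**Figure D4:**
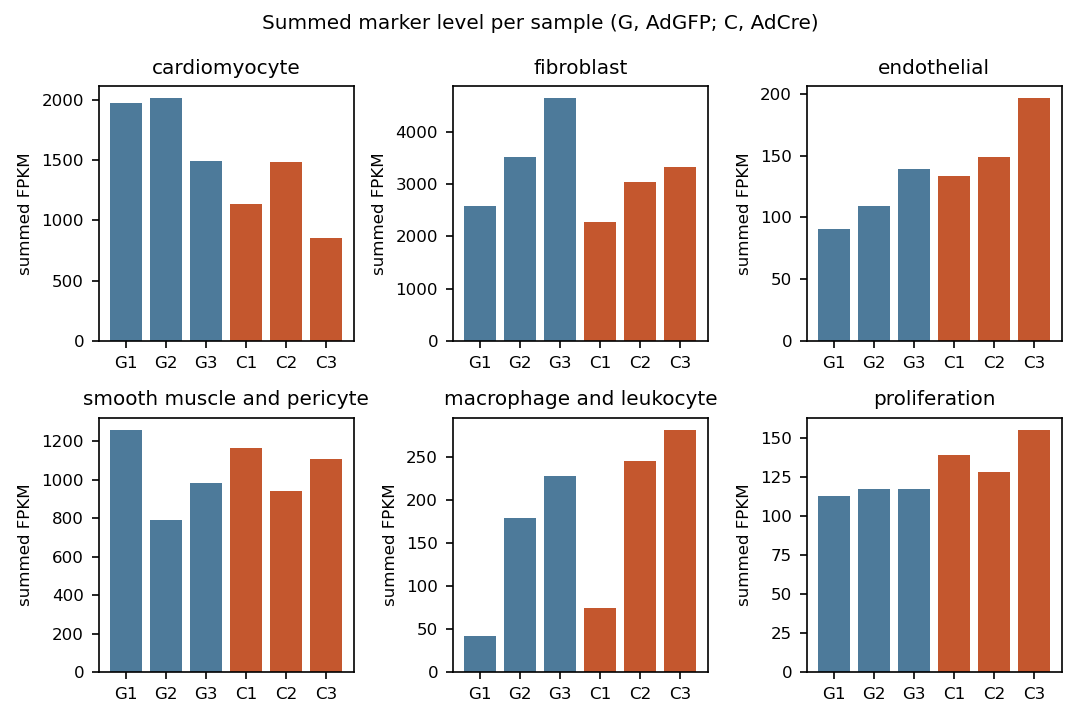
Bars of the summed FPKM of the markers of 6 cell classes, one bar per sample, with AdGFP in blue and AdCre in orange. Cardiomyocyte sums are 1496 to 2014 in AdGFP and 856 to 1484 in AdCre, and endothelial sums 90.7 to 139 and 134 to 197.

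Over 27 alternative settings, the differences of Hmga2, Hmga1, Cd44, Emp1 and Maff stayed positive in all 27. They ranged from 0.94 to 1.48 for Hmga2, 0.72 to 1.43 for Hmga1, 0.51 to 0.73 for Cd44, 0.44 to 0.61 for Emp1 and 0.31 to 0.58 for Maff. Of the 10 fits with the block, 8 called Hmga2, 7 Hmga1, 6 Cd44, 6 Emp1 and 5 Maff. Ier3 stayed negative in all 27, from -0.64 to -0.18, and was called in none.

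**Figure D5:**
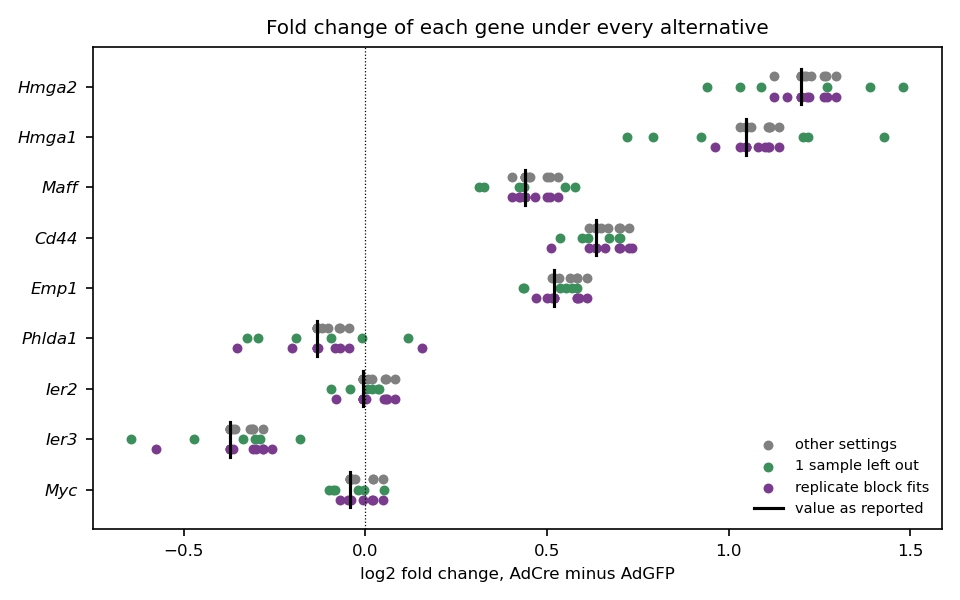
Log2 difference, AdCre minus AdGFP, of each of the 9 genes under the main setting and the 27 alternatives. Points for Hmga2 run from 0.94 to 1.48 and those for Ier2 lie on both sides of 0.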

How the data were processed

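Poly(A) RNA of 6 samples was sequenced, and 1 table of FPKM per gene was deposited by the authors, with 1 column per sample. The submitters' processing notes name fastp, STAR 2.5, HTSeq 0.6.1 and mm10, and use of strand is not given in the sources used here. Of 54532 gene IDs, 54495 were found in GENCODE M21 (GRCm38), which gave symbols, coordinates and exon lengths. FPKM times exon length, multiplied by a depth factor inferred for each sample from the lowest values, gave whole reads, within 0.02, for 97.23 to 97.42% of the values under 1000 reads in a sample.

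Samples were grouped by their labels. Log2(FPKM + 0.1) was fitted by limma 3.58.1 (R 4.3.3, eBayes with trend) for 13788 genes averaging 0.5 FPKM or more, with Benjamini-Hochberg adjustment over all of them. This scale understates differences of low genes. A gene was called at an adjusted p under 0.05. Each group has replicates numbered 1 to 3, and the meaning of a number is not stated. Deviations from group means correlated across genes at 0.57, 0.27 and 0.51 between same-numbered samples and from -0.50 to 0.037 between others. Samples were treated as pairs on this evidence only, and the fit with the number as a block is given beside the main one. Deviations within a group sum to 0, so high correlations for same numbers force low ones for the others, which are not separate evidence. The correlations come from the same expression values that the blocked fit uses. Whether replicates came from separate litters is not stated, so p-values measure the spread between these samples. The steps were run on simulated data with the same spread for every gene, with and without pair effects. Such data cannot show whether the real samples are pairs.

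The 9 genes and all lists were chosen with earlier results of these data known. Named were the 9 genes, Rit1 and, from each list, up to 4 called genes with the smallest p in the blocked fit, or the 2 smallest where none was called; marker genes named beside these were chosen after their values were seen. Alternatives covered the pseudocount, filter, scaling, trend, block and left-out replicates; scaling by recovered reads and voom on those reads were added after the data were seen. Python 3.11.15, numpy 2.4.6, pandas 2.3.3 and matplotlib 3.10.9 were used.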

Additional observations from a re-analysis of the deposited data

How the results depend on the processing

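Limits come first from the design, with 3 samples a group and calls that need the pairing. With the replicate block, 848 genes and 5 of the 9 were called, against 1 and 0 without it. Blocked fits called 875 and 5 on TPM, 785 and 5 with a pseudocount of 1, 17 and 1 with no filter, 875 and 5 with recovered-read scaling, 1741 and 5 in voom, and 0 genes (3122 at an unadjusted p under 0.05) without the intensity trend. Of blocked calls over all genes, 42.9% were higher in AdCre, against 61.5% on TPM, 54.7% with recovered-read scaling, 57.6% in voom and 64.7% with no filter. Unblocked fits called 3 genes with a pseudocount of 1, 4 without the trend, 0 with no filter (2167 at an unadjusted p under 0.05) and 0 in voom (1448). Blocked fits with pair 1, 2 or 3 left out called 772, 149 and 1 genes and 4, 2 and 0 of the 9, and unblocked fits without 1 sample 0 to 2 genes. Ier2 turned positive on TPM (0.083, blocked or not), median centring (0.0067), quantile normalization (0.020), recovered-read scaling (0.056, both) and voom (0.055, blocked 0.052), and ranged from -0.094 to 0.061 when replicates were left out, with 0.036 without AdGFP 1, 0.038 without AdGFP 3, 0.018 without AdCre 1, 0.0057 without AdCre 2 and 0.0017 without pair 3. Myc turned positive on TPM (0.048, both), recovered-read scaling (0.020, both) and voom (0.022, blocked 0.018), and ranged from -0.099 to 0.050 with replicates left out. Phlda1 ranged from -0.33 to 0.12 without 1 sample and -0.35 to 0.16 without 1 pair, positive without AdGFP 1 (0.12) or pair 1. The median of other ERK output was 0.45 with no filter, 0.30 at 1 FPKM, 0.50 on TPM, 0.47 with recovered-read scaling and 0.47 in voom, 0.33 to 0.43 without 1 sample, and 0.43 to 0.47 without 1 pair (0.46 without pair 3). That of the MYC and MAX partners was -0.0095 with a pseudocount of 1, -0.011 with no filter or at 1 FPKM, 0.053 on TPM, 0.025 with recovered-read scaling, 0.029 in voom and 0.058 in blocked voom, -0.073 to 0.043 without 1 sample, and -0.098 to 0.020 without 1 pair (-0.056 without pair 3). On TPM the CD44 partners were at 0.21, HMGA-linked genes at 0.13 and serum response factor genes at 0.27, and small MAF partners were at -0.039 at 1 FPKM. Without 1 sample, MYC-induced genes ranged from -0.0035 to 0.40, CD44 partners from 0.076 to 0.22 and serum response factor genes from 0.086 to 0.23, and without 1 pair from 0.083 to 0.22, 0.069 to 0.14 and 0.11 to 0.26. The causes were not tested.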

Other observations

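Within the other ERK output list, the AP-1 genes were picked out after their values were seen. Fosl1 measured 13.7, 3.86 and 2.57 FPKM in AdGFP and 24.1, 10.3 and 12.2 FPKM in AdCre, a log2 difference of 1.47 that was called with the block. Its groups overlapped, and its limma adjusted p without the block was 0.49. The other 5 AP-1 genes of the list were not called in either fit. Fosb, at 0.60, 0.40 and 0.41 FPKM in AdGFP and 1.12, 0.73 and 0.89 FPKM in AdCre, had separate groups and a log2 difference of 0.82. Fos, Jun, Junb and Fosl2 had overlapping groups and log2 differences of 0.089, 0.047, 0.23 and -0.095. No test of the difference between these genes was run.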
